A study of Mus musculus with 36 samples.

Results

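The genes described here are 10 protein-coding genes of the mouse *Hoxa* and *Hoxb* clusters: *Hoxa3*, *Hoxa5*, *Hoxa7*, *Hoxa9* and *Hoxa10*, and *Hoxb2*, *Hoxb3*, *Hoxb4*, *Hoxb5* and *Hoxb8*. They were chosen by name, by matching these symbols to the Ensembl identifiers of the count table, and all 10 were found. The choice was made with earlier results of these data known. They are 10 of the 21 protein-coding genes that the table holds for the *Hoxa* and *Hoxb* clusters, 10 of its 38 *Hox* genes and 10 of its 38887 genes. *Hox* genes encode homeodomain transcription factors, lie side by side in clusters, and are best known for setting position along the body axis of the embryo. In blood, genes of the *Hoxa* and *Hoxb* clusters are read in stem cells and early progenitors and are shut down as cells mature, with MLL complexes known to keep them active and polycomb complexes to silence them. Their proteins bind DNA together with cofactors of the TALE homeodomain family.

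RNA was measured in 36 libraries from bone marrow of mice, each made from 5000 cells sorted by flow cytometry. Of these, 17 hold long-term hematopoietic stem cells (LT-HSC, lineage-negative Sca-1+ c-Kit+ CD150+ CD48− cells) and 19 hold HPC-1 (CD150− CD48+ cells of the same lineage-negative gate), a progenitor population whose samples the labels name ST-HSC. The paper describes stranded total RNA libraries made with random priming. All mice were C57BL/6, lacked apolipoprotein E (*Apoe*-/-) and ate a Western diet from 8 weeks of age. The paper's figure legend gives 12 weeks of diet for these samples, which makes the mice 20 weeks old at the end. Its methods also name a shorter diet without saying which mice had it, so this age is not certain. *Il27ra*, which encodes the alpha chain of the IL-27 receptor, was intact in 1 set of mice (named WT here), had 1 allele lost in another (*Il27ra*+/-) and both alleles lost in the last (*Il27ra*-/-), and the loss is present in every cell of the body. For the last 2 weeks, mice received an infusion of PBS or of 800 ng/kg/min angiotensin II (Ang II). LT-HSC comprise 1 WT, 3 *Il27ra*+/- and 3 *Il27ra*-/- libraries after PBS and 2, 4 and 4 after Ang II. HPC-1 comprise 2 WT, 3 *Il27ra*+/- and 3 *Il27ra*-/- libraries after PBS and 3, 4 and 4 after Ang II. The labels give no gender, age or batch and do not say whether replicates are separate animals, so every p-value below measures the spread between samples.

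Total counts per library ran from 1980283 to 6861078 in LT-HSC (median 2560838, n = 17) and from 2272026 to 6318379 in HPC-1 (median 3254832, n = 19). After PBS, the LT-HSC libraries held 1980283 counts in WT, 2191163, 2560838 and 5271346 in *Il27ra*+/- and 2170180, 6806836 and 6578590 in *Il27ra*-/-. After Ang II they held 2244419 and 2077699 in WT, 2183648, 2568392, 4512346 and 6861078 in *Il27ra*+/- and 2487152, 2320769, 4526734 and 6618618 in *Il27ra*-/-. The deepest LT-HSC libraries were in the *Il27ra*+/- and *Il27ra*-/- groups. The HPC-1 libraries after PBS held 2938837 and 2908629 in WT, 3358062, 3103196 and 4922800 in *Il27ra*+/- and 3175532, 3254832 and 4475778 in *Il27ra*-/-. After Ang II, HPC-1 held 3517996, 3412686 and 2319520 in WT, 2618919, 2349391, 2272026 and 6318379 in *Il27ra*+/- and 3523523, 2857301, 3722262 and 5212330 in *Il27ra*-/-. Levels are given as counts per M (mega) counts of the library's TMM-scaled total (CPM). A floor of 3 counts was used for each library, which equals 0.398 to 1.493 CPM, and this floor and all counting intervals cover counting error alone.

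*Il27ra*, the gene that the genotypes differ in, checks the labels. In LT-HSC after Ang II it was at 42.9 and 51.8 CPM in WT, 30.2, 25.4, 27.1 and 32.8 CPM in *Il27ra*+/- and 16.3, 11.7, 16.1 and 19.3 CPM in *Il27ra*-/-, and the 3 groups did not overlap. After PBS the LT-HSC values were 17.1 CPM in WT, 42.7, 24.1 and 25.6 CPM in *Il27ra*+/- and 9.42, 6.94 and 16.3 CPM in *Il27ra*-/-. The single library labelled LT-HSC PBS WT thus lay near the *Il27ra*-/- values. HPC-1 had 8.26 and 11.9 CPM in WT, 15.6, 11.1 and 9.97 CPM in *Il27ra*+/- and 6.69, 11.1 and 8.35 CPM in *Il27ra*-/- after PBS. After Ang II the HPC-1 values were 10.2, 8.88 and 6.07 CPM in WT, 5.46, 9.58, 14.3 and 16.5 CPM in *Il27ra*+/- and 6.63, 5.91, 4.64 and 9.04 CPM in *Il27ra*-/-. These genotypes overlapped, so the genotypes of the HPC-1 libraries cannot be checked in this way.

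The cell type labels were checked against markers of each gate. The summed level of 9 LT-HSC markers was 1690.0 to 3237 CPM in 16 of the 17 LT-HSC libraries and 694.5 to 1389 CPM in HPC-1. That of 4 HPC-1 markers was 55.8 to 387.1 CPM in the same 16 libraries and 899.8 to 1754 CPM in HPC-1. The library labelled LT-HSC PBS *Il27ra*-/- replicate 2 stood apart, with 913.9 CPM of LT-HSC markers, 1427 CPM of HPC-1 markers, 2.362 CPM of *Slamf1* (which encodes CD150) and 62.59 CPM of *Cd48*, values within the HPC-1 range. Its granulocyte and monocyte markers summed to 4092 CPM, led by *Mpo* at 3522 CPM, and its lymphoid markers to 271.0 CPM, led by *Dntt* at 260.2 CPM. LT-HSC Ang II *Il27ra*-/- replicate 2 held the highest granulocyte and monocyte sum of LT-HSC, 6014 CPM led by *S100a9* at 2182 CPM, and the highest sum of eosinophil, mast cell and basophil markers, 459.6 CPM led by *Prg2* at 285.3 CPM. Its LT-HSC markers summed to 1690.0 CPM, the lowest of the 16. LT-HSC PBS *Il27ra*-/- replicate 3 held 959.2 CPM of the granulocyte and monocyte markers, led by *S100a9* at 323.6 CPM, and 112.1 CPM of the eosinophil, mast cell and basophil markers. The other 14 LT-HSC libraries held at most 198.2 and 28.55 CPM of these lists. Replicate 2 of *Il27ra*-/- after each agent and the single LT-HSC PBS WT library were left out together in 1 alternative analysis, and results are given with and without them. In WT libraries, 12 genes of intestinal epithelium summed to 268.7, 393.4 and 360.8 CPM in the 3 LT-HSC libraries, led by *Krt18*, with 0, 0 and 1 of the 12 at 0 counts, while the other LT-HSC libraries held 34.98 to 127.3 CPM. In HPC-1 the 5 WT libraries held 83.8 and 80.59 CPM after PBS and 96.38, 83.72 and 262.2 CPM after Ang II, the last led by *Lgals4*, and all 5 lay above the 14 others (34.78 to 77.86 CPM). The sums were thus highest in WT in both cell types. The part of these values in the results below was not tested.

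Summed over the 10 *Hox* genes, LT-HSC libraries held 173.3 to 359.7 CPM and HPC-1 libraries 121.9 to 255.9 CPM. The lowest LT-HSC sums were 173.3 CPM in PBS *Il27ra*-/- replicate 2, 178.7 CPM in Ang II *Il27ra*-/- replicate 2 and 186.6 CPM in Ang II WT replicate 2. The other 14 LT-HSC libraries ran from 241.2 to 359.7 CPM, and 18 of 19 HPC-1 libraries were at 221.9 CPM or less. The exception was HPC-1 Ang II *Il27ra*+/- replicate 3 with 255.9 CPM. It also had the highest LT-HSC marker sum of HPC-1, 1389 CPM, while its HPC-1 markers summed to 1639 CPM. The part of these values in its *Hox* levels was not tested.

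**Figure D1:**
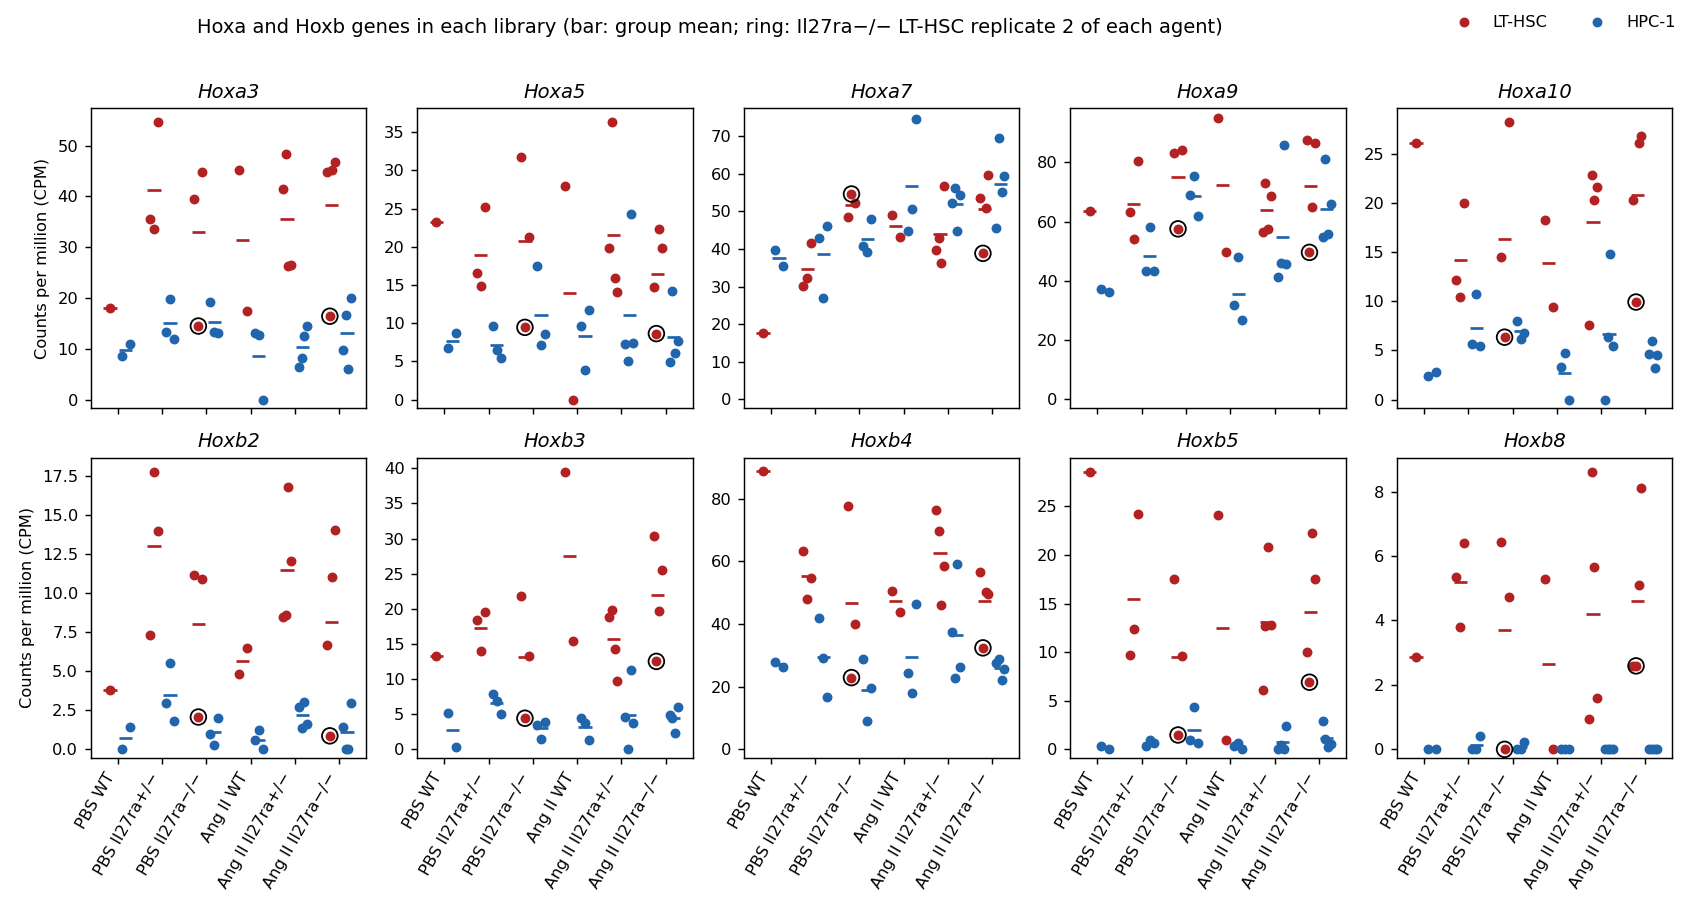
Level of each of the 10 *Hox* genes in every library (CPM), with 1 point per library and a short bar at each group mean, by cell type, agent and genotype, and with rings around *Il27ra*-/- LT-HSC replicate 2 of each agent. *Hoxb5* and *Hoxb8* were above every HPC-1 library in 15 of 17 LT-HSC libraries, while the *Hoxa7* values of the cell types overlapped.

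Per kb of exons, the order of the 10 genes by median level in LT-HSC was *Hoxb4* (19.7 CPM per kb), *Hoxa7* (15.06), *Hoxa9* (11.65), *Hoxa5* (10.55), *Hoxa3* (6.553), *Hoxa10* (6.13), *Hoxb5* (4.568), *Hoxb3* (4.342), *Hoxb2* (2.468) and *Hoxb8* (1.795). In HPC-1 the order by median was *Hoxa7* (16.05 CPM per kb), *Hoxb4* (10.26), *Hoxa9* (8.639), *Hoxa5* (3.958), *Hoxa3* (2.109), *Hoxa10* (1.679), *Hoxb3* (1.056), *Hoxb2* (0.4018), *Hoxb5* (0.2116) and *Hoxb8* (0). The ranges over libraries overlapped for every pair of neighbours in both orders, so the groups of libraries do not separate at any step. Within single libraries some steps held almost throughout: *Hoxa5* was above *Hoxa3* in 16 of 17 LT-HSC and 18 of 19 HPC-1 libraries, and *Hoxa9* above *Hoxa5* in 18 of 19 HPC-1 libraries. Others did not, such as *Hoxb5* above *Hoxb3* in 9 of 17 LT-HSC libraries and *Hoxb4* above *Hoxa9* in 11 of 19 HPC-1 libraries. *Hoxa7*, *Hoxb4* and *Hoxa9* stood first in both orders. *Hoxb5* was in place 7 in LT-HSC and in place 9 in HPC-1.

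The first question was which of the genes differ between the stem cells and the progenitors, taken as the mean of the differences in 5 conditions (PBS *Il27ra*+/-, PBS *Il27ra*-/-, Ang II WT, Ang II *Il27ra*+/- and Ang II *Il27ra*-/-). Higher levels in LT-HSC were found for 9 of the 10 *Hox* genes and lower levels for 0, where 17.9% of the 18013 genes tested were higher and 36.3% differed in either direction. The gene that did not pass was *Hoxa7*. By place in the clusters, the 5 *Hoxb* genes had log2 differences from 0.91 to 6.0 and the 5 *Hoxa* genes from −0.11 to 1.63. The highest *Hoxb* values, 6.0 in *Hoxb8* and 3.84 in *Hoxb5*, are of genes that entered through LT-HSC libraries, as described below. *Hoxb4*, *Hoxb3* and *Hoxb2* had 0.91, 2.1 and 2.59. The test was the quasi-likelihood test of edgeR, adjusted over all genes by the Benjamini-Hochberg method (BH), called at an adjusted p under 0.05, and DESeq2 also called 9 of the 10, where it called 24.2% of genes higher. Neither DESeq2's size factors nor upper-quartile factors turned the direction of any of the 10. All 10 passed edgeR's filter on low counts in the fit of both cell types, whereas *Hoxb5* and *Hoxb8* failed it among HPC-1 libraries alone. They thus entered through LT-HSC libraries, which favours a higher level there, so their calls are no separate evidence of one. Among the 8 genes that pass the filter in each cell type alone, 7 were higher in LT-HSC (median log2 difference 1.27). Of all 12926 genes that do so, 18.6% were higher (median −0.06). In these bulk samples, fewer cells that read a gene and less RNA per cell cannot be told apart.

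Without the 3 LT-HSC libraries named above, 9 of the 10 were called again and *Hoxa7* was not, where 22.3% of genes were higher. Leaving out LT-HSC Ang II WT replicate 1, which leaves 1 library in its group, reduced the count to 6 (*Hoxa3*, *Hoxa10*, *Hoxb2*, *Hoxb3*, *Hoxb4* and *Hoxb5*), where 15.4% of genes were higher. The log2 differences of the other called genes were then −0.73 for *Hoxa5*, 0.29 for *Hoxa9* and 4.75 for *Hoxb8*. With the *Il27ra*+/- and *Il27ra*-/- conditions alone, 8 of the 10 were called and *Hoxa9* had a log2 difference of 0.24. The share of all genes called in that fit is not given, so the 8 cannot be set against it.

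**Figure D2:**
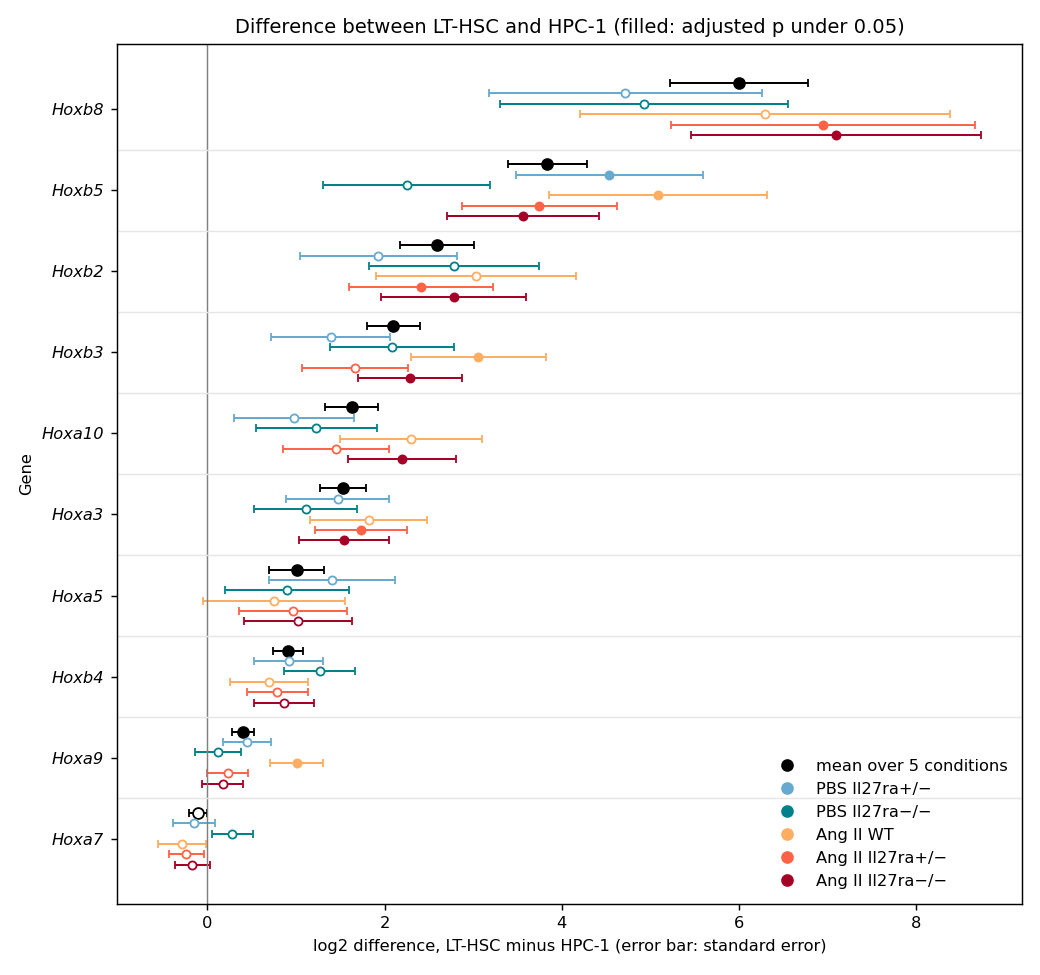
Log2 difference between LT-HSC and HPC-1 for each of the 10 *Hox* genes, with points for the mean over 5 conditions and for each condition, with bars of 1 standard error and filled points where the BH-adjusted p by edgeR was under 0.05. The mean over the conditions lay above 0 for 9 genes, from 0.40 in *Hoxa9* to 6.0 in *Hoxb8*, and at −0.11 in *Hoxa7*.

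*Hoxb5* (ENSMUSG00000038700, mm10 chromosome 11, 96303336 to 96306121), whose reporter allele is used to mark long-term stem cells, was at 28.5 CPM in WT, 9.71, 12.4 and 24.2 CPM in *Il27ra*+/- and 17.6, 1.48 and 9.61 CPM in *Il27ra*-/- LT-HSC after PBS. After Ang II, LT-HSC had 24.1 and 0.995 CPM in WT, 6.13, 12.7, 20.8 and 12.8 CPM in *Il27ra*+/- and 9.99, 6.91, 22.3 and 17.5 CPM in *Il27ra*-/-. In the 19 HPC-1 libraries *Hoxb5* ran from 0 to 4.309 CPM with a median of 0.5896 CPM. Of the 17 LT-HSC libraries, 15 lay above every HPC-1 library, and the low ones were PBS *Il27ra*-/- replicate 2 and Ang II WT replicate 2. In HPC-1 the highest *Hoxb5* values were 4.309 CPM in PBS *Il27ra*-/- replicate 2, 2.883 CPM in Ang II *Il27ra*-/- replicate 1 and 2.42 CPM in Ang II *Il27ra*+/- replicate 4. The mean CPM in LT-HSC was 15.75 times that in HPC-1, and the pooled counts gave a ratio of 14.05 (95% counting interval 10.9 to 18.39). The log2 difference over 5 conditions was 3.84 (SE 0.45, BH-adjusted p = 1.21e-08 by edgeR), and 3.99 without the 3 libraries. It was 3.11 without LT-HSC Ang II WT replicate 1.

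*Hoxb8* (ENSMUSG00000056648, mm10 chromosome 11, 96281905 to 96285315), whose forced expression holds myeloid progenitors in an immature, dividing state, was at 2.85 CPM in WT, 5.34, 3.80 and 6.39 CPM in *Il27ra*+/- and 6.43, 0 and 4.73 CPM in *Il27ra*-/- LT-HSC after PBS. After Ang II, LT-HSC had 5.30 and 0 CPM in WT, 0.943, 8.61, 5.66 and 1.59 CPM in *Il27ra*+/- and 2.59, 2.59, 5.11 and 8.12 CPM in *Il27ra*-/-. In HPC-1, 17 of 19 libraries had 0 counts, PBS *Il27ra*+/- replicate 3 had 2 counts and PBS *Il27ra*-/- replicate 3 had 1 count. *Hoxb8* was thus almost confined to LT-HSC libraries, with 286 counts there and 3 in HPC-1, and 15 of 17 LT-HSC libraries lay above every HPC-1 library. The LT-HSC libraries with 0 counts were PBS *Il27ra*-/- replicate 2 and Ang II WT replicate 2, the same 2 that had the lowest *Hoxb5*. Against HPC-1 groups at 0 counts, with the floor of 3 counts per library, *Hoxb8* was at least 2.557-fold higher in LT-HSC in PBS WT, at least 2.522-fold in Ang II WT, at least 3.718-fold in Ang II *Il27ra*+/- and at least 5.469-fold in Ang II *Il27ra*-/-. Where HPC-1 had 1 or 2 counts, the pooled ratio was 30.03 (95% counting interval 7.96 to 253.7) in PBS *Il27ra*+/- and 32.64 (5.584 to 1316) in PBS *Il27ra*-/-. The fitted log2 difference of 6.0 (SE 0.78, BH-adjusted p = 2.45e-07 by edgeR) depends on the prior for groups at 0 and is no bound. Without LT-HSC Ang II WT replicate 1, the only library of that group with a *Hoxb8* count, *Hoxb8* was not called.

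*Hoxb4* (ENSMUSG00000038692, mm10 chromosome 11, 96318267 to 96321638), whose enforced expression expands stem cells, was at 88.9 CPM in WT, 63.1, 47.9 and 54.6 CPM in *Il27ra*+/- and 77.5, 22.9 and 40.0 CPM in *Il27ra*-/- LT-HSC after PBS. After Ang II, LT-HSC had 50.6 and 43.8 CPM in WT, 76.4, 69.6, 45.9 and 58.6 CPM in *Il27ra*+/- and 56.6, 32.4, 50.3 and 49.4 CPM in *Il27ra*-/-. HPC-1 libraries ran from 8.925 to 59.08 CPM with a median of 26.32 CPM. The cell types overlapped, and 5 of 17 LT-HSC libraries lay above every HPC-1 library. The lowest LT-HSC values were 22.88 CPM in PBS *Il27ra*-/- replicate 2 and 32.37 CPM in Ang II *Il27ra*-/- replicate 2, and the highest HPC-1 value was 59.08 CPM in Ang II *Il27ra*+/- replicate 3. The log2 difference of *Hoxb4* was 0.91 (SE 0.17, BH-adjusted p = 6.34e-05 by edgeR), a ratio of mean CPM of 1.93.

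*Hoxb3* (ENSMUSG00000048763, mm10 chromosome 11, 96323326 to 96347930), whose loss together with *Hoxb4* impairs the regeneration of stem cells, ran from 4.428 to 39.48 CPM in LT-HSC (median 18.46 CPM) and from 0 to 11.29 CPM in HPC-1 (median 4.49 CPM). In LT-HSC, 15 of 17 libraries lay above every HPC-1 library, and the exceptions were PBS *Il27ra*-/- replicate 2 with 4.428 CPM and Ang II *Il27ra*+/- replicate 4 with 9.69 CPM. Between the cell types *Hoxb3* differed by a log2 of 2.10 (SE 0.30, BH-adjusted p = 3.9e-07 by edgeR), a ratio of mean CPM of 4.266. *Hoxb2* (ENSMUSG00000075588, mm10 chromosome 11, 96350525 to 96354012), a gene of hindbrain patterning, ran from 0.8632 to 17.75 CPM in LT-HSC (median 8.608 CPM) and from 0 to 5.529 CPM in HPC-1 (median 1.402 CPM). Its LT-HSC libraries lay above every HPC-1 library in 13 of 17 cases, and its lowest LT-HSC value, 0.8632 CPM, was in Ang II *Il27ra*-/- replicate 2. *Hoxb2* had a log2 difference of 2.59 (SE 0.42, BH-adjusted p = 3.24e-06 by edgeR), a ratio of mean CPM of 5.843. Exons of both genes overlap those of the noncoding *Hoxb3os* on the other strand, over 52.9% of the exon length of *Hoxb3* and 27.3% of that of *Hoxb2*. The strand setting of the counting is not given in the sources used here, so counts of such partners cannot be told apart.

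*Hoxa9* (ENSMUSG00000038227, mm10 chromosome 6, 52223100 to 52231089), required for normal stem cell function and a driver of leukemia together with *Meis1*, was at 63.7 CPM in WT, 63.1, 54.2 and 80.3 CPM in *Il27ra*+/- and 83.1, 57.6 and 84.2 CPM in *Il27ra*-/- LT-HSC after PBS. After Ang II, LT-HSC had 94.8 and 49.8 CPM in WT, 56.6, 73.0, 57.5 and 68.8 CPM in *Il27ra*+/- and 87.7, 49.6, 65.0 and 86.5 CPM in *Il27ra*-/-. HPC-1 libraries ran from 26.87 to 86.01 CPM with a median of 48.2 CPM. The ranges overlapped broadly, and 3 of 17 LT-HSC libraries lay above every HPC-1 library. The log2 difference of *Hoxa9* was 0.40 (SE 0.12, BH-adjusted p = 0.00586 by edgeR), a ratio of mean CPM of 1.303. It was 0.46 without the 3 libraries, 0.29 without LT-HSC Ang II WT replicate 1 and 0.24 without WT conditions, and *Hoxa9* was not called in the last 2 of these.

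*Hoxa10* (ENSMUSG00000000938, mm10 chromosome 6, 52231197 to 52240854), whose enforced expression expands progenitors, ran from 6.347 to 28.24 CPM in LT-HSC (median 20.04 CPM) and from 0 to 14.77 CPM in HPC-1 (median 5.491 CPM). Of the LT-HSC libraries, 10 of 17 lay above every HPC-1 library, and the lowest was PBS *Il27ra*-/- replicate 2. *Hoxa10* had a log2 difference of 1.63 (SE 0.30, BH-adjusted p = 3.57e-05 by edgeR), a ratio of mean CPM of 3.339. *Hoxa3* (ENSMUSG00000079560, mm10 chromosome 6, 52169062 to 52213336), needed for the thymus and parathyroid, ran from 14.47 to 54.6 CPM in LT-HSC (median 39.41 CPM) and from 0 to 20.04 CPM in HPC-1 (median 12.68 CPM). In LT-HSC, 13 of 17 libraries lay above every HPC-1 library, and the 4 others were PBS WT replicate 1, Ang II WT replicate 2 and replicate 2 of *Il27ra*-/- after each agent. For *Hoxa3* the log2 difference was 1.53 (SE 0.26, BH-adjusted p = 1.59e-05 by edgeR), a ratio of mean CPM of 2.906. Exons of *Hoxa3* overlap those of noncoding genes on the other strand over 25.4% of their length.

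*Hoxa5* (ENSMUSG00000038253, mm10 chromosome 6, 52201754 to 52204587), a gene of lung and axial skeleton development, ran from 0 to 36.31 CPM in LT-HSC (median 19.8 CPM) and from 3.805 to 24.33 CPM in HPC-1 (median 7.429 CPM). The only library of the 36 with 0 counts of *Hoxa5* was LT-HSC Ang II WT replicate 2, and the highest HPC-1 value was that of Ang II *Il27ra*+/- replicate 3. In LT-HSC, 4 of 17 libraries lay above every HPC-1 library. The log2 difference of *Hoxa5* was 1.01 (SE 0.31, BH-adjusted p = 0.00944 by edgeR), a ratio of mean CPM of 2.088. When LT-HSC Ang II WT replicate 1 was left out, its group held 1 library at 0 counts and the fitted mean over 5 conditions was −0.73, with *Hoxa5* not called. Leaving out the 3 libraries gave 1.13.

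*Hoxa7* (ENSMUSG00000038236, mm10 chromosome 6, 52214491 to 52221854), which viral insertions activate together with *Meis1* in mouse myeloid leukemia, was at 17.6 CPM in WT, 30.1, 32.3 and 41.6 CPM in *Il27ra*+/- and 48.4, 54.6 and 52.2 CPM in *Il27ra*-/- LT-HSC after PBS. After Ang II, LT-HSC had 49.1 and 43.3 CPM in WT, 39.6, 43.04, 36.29 and 56.7 CPM in *Il27ra*+/- and 53.6, 38.8, 50.9 and 59.6 CPM in *Il27ra*-/-. HPC-1 libraries ran from 27.0 to 74.55 CPM with a median of 46.17 CPM. The LT-HSC median was 43.3 CPM, 0 of 17 LT-HSC libraries lay above every HPC-1 library, and the lowest value of all 36 was the single LT-HSC PBS WT library. With a log2 difference of −0.11 (SE 0.10, BH-adjusted p = 0.449 by edgeR), *Hoxa7* did not pass the test. This difference ran from −0.17 to −0.04 in 9 alternatives and from −0.15 to −0.02 when single libraries were left out. In LT-HSC PBS *Il27ra*-/- replicate 2, where *Hoxb8* had 0 counts, *Hoxa7* was at 54.62 CPM, the highest value of its group. The noncoding *Hoxaas3* on the other strand overlaps 20.4% of the exon length of *Hoxa7*, whose counts have the same limit as those of *Hoxb3* and *Hoxb2*.

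**Figure D3:**
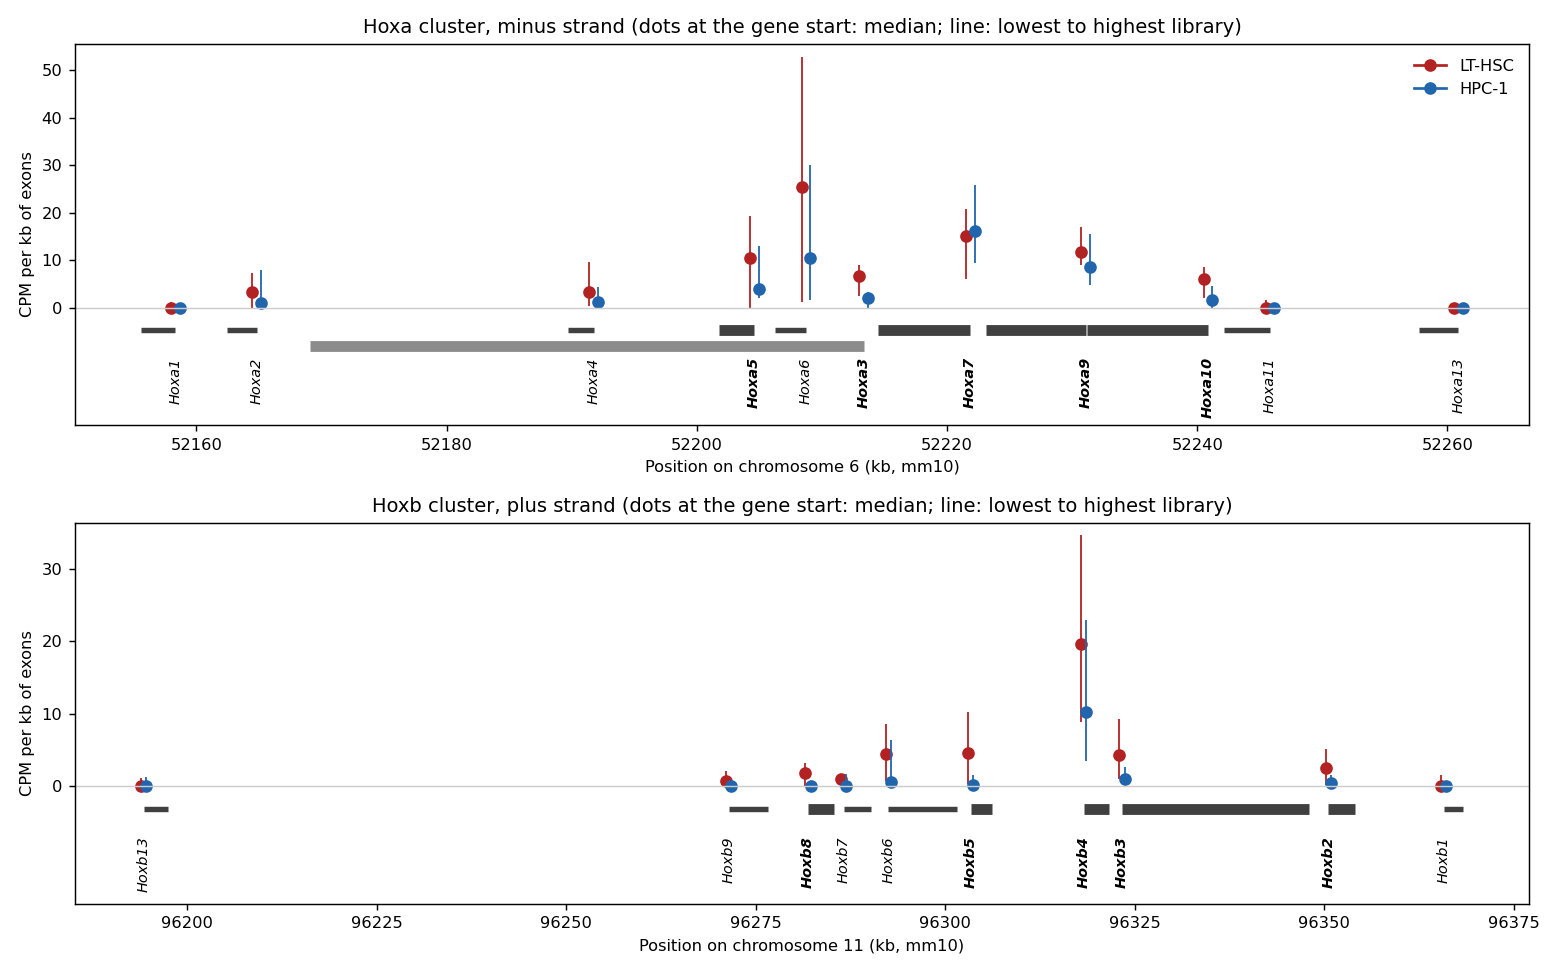
Median level (points) and lowest to highest library (lines) of every protein-coding *Hoxa* and *Hoxb* gene in CPM per kb of exons, by cell type, over the position of the genes in mm10, with thick bars and bold names for the 10 genes. In the *Hoxb* cluster *Hoxb4* had the highest median per kb in LT-HSC (19.7 CPM per kb), and in the *Hoxa* cluster *Hoxa6* had (25.42 CPM per kb), while *Hoxa7* was at 15.06 CPM per kb in LT-HSC and 16.05 in HPC-1.

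The same difference was examined in each condition. After PBS in *Il27ra*+/- mice, *Hoxb5* alone was called higher in LT-HSC (1 of 10, where 3.84% of genes tested were called higher), with a log2 difference of 4.54 (SE 1.06, BH-adjusted p = 0.00699 by edgeR). Its values were 9.71, 12.4 and 24.2 CPM in LT-HSC and 0.331, 0.976 and 0.610 CPM in HPC-1, a pooled ratio of 28.46 (95% counting interval 13.56 to 71.7). The filter favoured *Hoxb5*, and of the 8 genes that pass it in each cell type alone 0 were called, where 4.02% of such genes were higher. The 10 genes had a median log2 difference of 1.40 against 0.16 for all genes, and 6 of them had an unadjusted p under 0.05 (22% of all genes). DESeq2 called 3 (*Hoxb5*, *Hoxb8* and *Hoxa3*), where it called 8.37% of genes higher. *Hoxb5* and *Hoxb8*, which entered through LT-HSC libraries, are in the median, the 6 and the 3. These values thus cannot be set against those of all genes. Scaling matters in this condition: the median of all genes was 0.25 with upper-quartile factors, and calls over all genes were 691 higher and 691 lower with TMM and 757 and 428 with upper-quartile factors. With DESeq2, which differs in the test and the genes tested as well as in its size factors, the median of the same genes was 0.28. The counts that follow, with libraries left out, have no share of all genes from the same fits beside them and cannot be set against it. The count of *Hox* genes was 2 without LT-HSC PBS *Il27ra*-/- replicate 2, LT-HSC Ang II WT replicate 1 or 2, or HPC-1 Ang II *Il27ra*+/- replicate 3, was 3 without HPC-1 Ang II WT replicate 3, and was 2 without the 3 libraries together.

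After PBS in *Il27ra*-/- mice, 0 of the 10 genes were called by edgeR, where 0.877% of genes tested were called higher (0.944% of those that pass the filter in each cell type alone). An unadjusted p under 0.05 was found for 5 (10.8% of all genes). *Hoxb5* and *Hoxb8*, which entered through LT-HSC libraries, are among these 5, so the 5 cannot be set against that share. DESeq2 called 3 (*Hoxb4*, *Hoxb3* and *Hoxb2*), where it called 3.15% of genes higher. *Hoxb4* had the smallest p and was at 77.5, 22.9 and 40.0 CPM in LT-HSC and 28.7, 8.93 and 19.6 CPM in HPC-1, with a log2 difference of 1.27 (BH-adjusted p = 0.145 by edgeR). *Hoxb5* was at 17.6, 1.48 and 9.61 CPM in LT-HSC and 0.956, 4.31 and 0.659 CPM in HPC-1. In both genes LT-HSC replicate 2, the library with HPC-1 marker levels, was the lowest LT-HSC library and lay within the HPC-1 range. Without it, 4 genes were called higher (*Hoxb2*, *Hoxb3*, *Hoxb4* and *Hoxb8*), with log2 differences of 3.28, 2.54, 1.64 and 5.55, and the share of all genes called higher rose to 4.02%. The count without the 3 libraries was also 4 (5.53% of genes higher), and without LT-HSC replicate 3, which held granulocyte markers, it was 0.

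After Ang II in WT mice, 3 of the 10 genes were called higher in LT-HSC (*Hoxa9*, *Hoxb3* and *Hoxb5*), where 5.37% of genes tested were. Over the 8 genes that pass the filter in each cell type alone the count was 2, where 6.11% of such genes were higher. *Hoxa9* was at 94.8 and 49.8 CPM in LT-HSC and 32.0, 48.2 and 26.9 CPM in HPC-1, with a log2 difference of 1.01 (SE 0.30, BH-adjusted p = 0.0242 by edgeR). *Hoxb3* was at 39.5 and 15.4 CPM in LT-HSC and 4.49, 3.81 and 1.30 CPM in HPC-1, with a log2 difference of 3.06 (BH-adjusted p = 0.00744 by edgeR). In both genes each LT-HSC library lay above each HPC-1 library, as in 6 of the 10 and in 15.3% of all genes. *Hoxb5* was at 24.1 and 0.995 CPM in LT-HSC and 0.299, 0.634 and 0 CPM in HPC-1, a pooled ratio of 37.34 (95% counting interval 12.09 to 186.9) that rests on replicate 1. In these 3 genes the lowest HPC-1 value was that of HPC-1 replicate 3, which had 5 of the 10 genes at 0 counts. That library also held 262.2 CPM of intestinal epithelium genes and had a count in the fewest genes of all libraries (13053). DESeq2 called 7 of the 10 (10.8% of genes higher), and 7 had an unadjusted p under 0.05 with edgeR (25.6% of all genes). These counts and the 6 above are over all 10, with *Hoxb5* and *Hoxb8*, so they cannot be set against the shares beside them. Without LT-HSC Ang II WT replicate 1 the count was 1, with *Hoxa5* called lower in a comparison with 1 LT-HSC library at 0 counts. The count was 5 without LT-HSC PBS *Il27ra*-/- replicate 2 or HPC-1 Ang II *Il27ra*+/- replicate 1 or 3, and 7 without the 3 libraries (7.96% of genes higher). For the single libraries left out, the share of all genes in the same fits is not given, so those counts cannot be set against it.

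After Ang II in *Il27ra*+/- mice, 4 of the 10 genes were called higher in LT-HSC (*Hoxa3*, *Hoxb2*, *Hoxb5* and *Hoxb8*), where 7.59% of genes tested were. Without *Hoxb5* and *Hoxb8* the count was 2 of 8, where 8.25% of the genes that pass the filter in each cell type alone were higher. *Hoxa3* was at 41.5, 48.3, 26.2 and 26.6 CPM in LT-HSC and 6.37, 8.21, 12.6 and 14.5 CPM in HPC-1, with a log2 difference of 1.73 (BH-adjusted p = 0.0223 by edgeR). *Hoxb2* was at 8.48, 8.61, 16.8 and 12.1 CPM in LT-HSC and 2.73, 1.37, 3.04 and 1.61 CPM in HPC-1, with a log2 difference of 2.41 (BH-adjusted p = 0.0382 by edgeR). *Hoxb5* was at 6.13, 12.7, 20.8 and 12.8 CPM in LT-HSC and 0, 0.456, 0 and 2.42 CPM in HPC-1, with a log2 difference of 3.75 (SE 0.88, BH-adjusted p = 0.00286 by edgeR). In these 3 genes and *Hoxb8* all 4 LT-HSC libraries lay above all 4 HPC-1 libraries, as in 10.7% of all genes. *Hoxb8* had 64 counts in LT-HSC and 0 in HPC-1. DESeq2 called 6 (12.4% of genes higher), and 7 had an unadjusted p under 0.05 with edgeR (27.4% of all genes). These counts and the separation above are over all 10, with *Hoxb5* and *Hoxb8*, so they cannot be set against the shares beside them. The count called by edgeR was 2 without LT-HSC Ang II *Il27ra*+/- replicate 2 or without HPC-1 replicate 1 or 2 of this condition, and 7 without HPC-1 replicate 3. These counts are given without the share of all genes in the same fits and cannot be set against it.

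After Ang II in *Il27ra*-/- mice, 6 of the 10 genes were called higher in LT-HSC (*Hoxa3*, *Hoxa10*, *Hoxb2*, *Hoxb3*, *Hoxb5* and *Hoxb8*), where 7.04% of genes tested were. This was 4 of the 8 genes that pass the filter in each cell type alone, where 7.56% of such genes were higher. *Hoxa10* was at 20.3, 9.93, 26.2 and 26.9 CPM in LT-HSC and 4.61, 5.91, 3.19 and 4.52 CPM in HPC-1, with a log2 difference of 2.20 (BH-adjusted p = 0.013 by edgeR). *Hoxb3* was at 30.3, 12.5, 19.6 and 25.5 CPM in LT-HSC and 4.90, 4.52, 2.32 and 6.09 CPM in HPC-1, with a log2 difference of 2.29 (BH-adjusted p = 0.00776 by edgeR). In both genes all 4 LT-HSC libraries lay above all 4 HPC-1 libraries, as in 5 of the 10 and in 10.8% of all genes, with replicate 2, the library with granulocyte markers, the lowest. *Hoxb5* was at 9.99, 6.91, 22.3 and 17.5 CPM in LT-HSC and 2.88, 1.04, 0.290 and 0.590 CPM in HPC-1, with a log2 difference of 3.56 (SE 0.86, BH-adjusted p = 0.00451 by edgeR). *Hoxa3* had a log2 difference of 1.54 (BH-adjusted p = 0.0429) and *Hoxb2* one of 2.78 (BH-adjusted p = 0.0204), both by edgeR. Of the 10, 7 had an unadjusted p under 0.05 (25.5% of all genes), and DESeq2 called 6 (12.4% of genes higher). These counts and the 5 above are over all 10, with *Hoxb5* and *Hoxb8*, so they cannot be set against the shares beside them. Without HPC-1 Ang II *Il27ra*-/- replicate 3, the count called by edgeR was 3, given without the share of all genes in that fit.

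In PBS WT mice, where LT-HSC have 1 library, the difference was not tested. There *Hoxb5* was at 28.5 CPM in LT-HSC and 0.393 and 0 CPM in HPC-1, and *Hoxb4* at 88.9 CPM and 27.9 and 26.3 CPM. *Hoxa7* went the other way, with 17.6 CPM in LT-HSC and 39.7 and 35.4 CPM in HPC-1. In the 5 tested conditions *Hoxa7* had log2 differences of −0.15, 0.28, −0.29, −0.24 and −0.17 in the order above and was called in 0 of them, with edgeR and with DESeq2. *Hoxb4* was also called in 0 of the 5 by edgeR, although its log2 differences were all positive (0.92, 1.27, 0.69, 0.79 and 0.86), and DESeq2 called it in PBS *Il27ra*-/-.

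Whether the cell type difference depends on the agent was tested as an interaction over the *Il27ra*+/- and *Il27ra*-/- mice. The log2 difference between LT-HSC and HPC-1 after Ang II minus that after PBS ran from −0.27 in *Hoxb4* to 2.20 in *Hoxb8*, with a median of 0.24 over the 10 genes and −0.01 over all genes. *Hoxb8* had the smallest unadjusted p, and in HPC-1 of these genotypes it had 0 counts after Ang II and 3 after PBS. edgeR called 0 of the 10 genes (background 0% of 18013 genes), 0 of the 10 had an unadjusted p under 0.05 (2.84% of all genes), and DESeq2 called 0 of the 10. The same was asked of the genotype, as the cell type difference in *Il27ra*-/- minus that in *Il27ra*+/- over both agents. It ran from −1.24 in *Hoxb5* to 0.65 in *Hoxb3*. *Hoxb8* had a standard error of 562, so nothing can be read for it. *Hoxb5* had the smallest unadjusted p of the other 9, and its lowest LT-HSC value among these groups was 1.48 CPM in PBS *Il27ra*-/- replicate 2. Of these 9 edgeR called 0 (background 0%) and 0 had an unadjusted p under 0.05 (4.45% of all genes), and DESeq2 called 0 of the 10 and 8 of all genes. Both counts were 0 in every alternative and omission of single libraries that was run.

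Within LT-HSC, the effect of *Il27ra* loss and of Ang II on the 10 genes was tested in 6 comparisons over 16365 genes. In each of them edgeR called 0 of the 10 genes and DESeq2 called 0 of the 10, while DESeq2 called 0 to 761 of all genes. Between *Il27ra*-/- and WT after Ang II, the log2 differences ran from −0.31 in *Hoxb3* to 0.81 in *Hoxb8* (background 1.69%, 0 of the 10 with an unadjusted p under 0.05, where 17.7% of all genes had one). Between *Il27ra*+/- and WT after Ang II they ran from −0.82 in *Hoxb3* to 1.05 in *Hoxb2* (background 0.831%, 0 of the 10 with such a p, where 15.7% of all genes had one). *Hoxb3* was at 39.5 and 15.4 CPM in WT, 18.9, 19.8, 14.3 and 9.69 CPM in *Il27ra*+/- and 30.3, 12.5, 19.6 and 25.5 CPM in *Il27ra*-/-, and the genotypes overlapped. When LT-HSC Ang II WT replicate 1 was left out, 1 gene was called in each of these 2 comparisons, *Hoxa5*, against a single WT library at 0 counts that is assumed to vary like the other groups.

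Between *Il27ra*-/- and *Il27ra*+/- LT-HSC after PBS, *Hoxa7* was the 1 gene of the 10 with an unadjusted p under 0.05, a share near the 3.99% of all genes. It was at 48.4, 54.6 and 52.2 CPM in *Il27ra*-/- and 30.1, 32.3 and 41.6 CPM in *Il27ra*+/-, groups that did not overlap, as in 7.7% of all genes. Its log2 difference was 0.57 (BH-adjusted p = 0.982 by edgeR, background 0%), so it did not pass the test. After Ang II, *Hoxa7* was at 53.6, 38.8, 50.9 and 59.6 CPM in *Il27ra*-/- and 39.6, 43.04, 36.29 and 56.7 CPM in *Il27ra*+/- LT-HSC, and the groups overlapped. In that comparison the 10 genes ran from −0.47 in *Hoxb2* to 0.51 in *Hoxb3* (background 0%, 0 of the 10 with an unadjusted p under 0.05, where 2.6% of all genes had one). Between Ang II and PBS in LT-HSC, they ran from −0.32 in *Hoxb8* to 0.33 in *Hoxa10* in *Il27ra*+/- and from −0.32 in *Hoxa5* to 0.77 in *Hoxb3* in *Il27ra*-/- (background 0% in both, 0 of the 10 with an unadjusted p under 0.05 in each, where 4.93% and 0.917% of all genes had one).

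Within HPC-1, 8 of the 10 genes passed the filter (all but *Hoxb5* and *Hoxb8*), and 9 comparisons were tested over 13199 genes. In each of the 9, edgeR called 0 of the 8 genes and DESeq2 called 0 (0 to 21 of all genes), with a background of 0% in 8 comparisons and of 0.0152% between *Il27ra*-/- and WT after PBS. *Hoxa9* had the smallest p of the 8 between *Il27ra*-/- and WT after each agent. After PBS it was at 37.4 and 36.1 CPM in WT, 43.4, 58.2 and 43.3 CPM in *Il27ra*+/- and 68.8, 75.4 and 61.8 CPM in *Il27ra*-/- HPC-1. After Ang II it was at 32.0, 48.2 and 26.9 CPM in WT, 41.4, 46.1, 86.0 and 45.5 CPM in *Il27ra*+/- and 54.8, 81.0, 55.9 and 65.8 CPM in *Il27ra*-/- HPC-1. After each agent all *Il27ra*-/- libraries lay above all WT libraries. After PBS the groups of 3 of the 8 genes did not overlap, where 28.9% of all genes did not, and after Ang II those of *Hoxa9* alone, where 6.23% did not. The *Il27ra*+/- libraries lay between them after PBS and overlapped both after Ang II. The log2 difference of *Hoxa9* between *Il27ra*-/- and WT was 0.90 after PBS (BH-adjusted p = 0.59) and 0.82 after Ang II (BH-adjusted p = 0.954), both by edgeR. Between *Il27ra*+/- and WT after Ang II it was 0.59 (BH-adjusted p = 0.649 by edgeR). These were the single members with an unadjusted p under 0.05 in their comparisons, where 6.55%, 5.01% and 7.39% of all genes had such a p, so a count of 1 in 8 is near the background. The WT libraries compared here are also those with the higher sums of intestinal epithelium genes, whose part in these values was not tested. All WT libraries had Y-linked sums over 10 CPM, while the *Il27ra*+/- and *Il27ra*-/- groups held libraries above and below it. In LT-HSC, *Hoxa9* showed no such order, since Ang II WT had 94.8 and 49.8 CPM and Ang II *Il27ra*-/- 87.7, 49.6, 65.0 and 86.5 CPM.

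Between Ang II and PBS in WT HPC-1, *Hoxa7* was the 1 gene of the 8 with an unadjusted p under 0.05, and 3.18% of all genes had one. It was at 44.9, 50.7 and 74.5 CPM after Ang II and 39.7 and 35.4 CPM after PBS, groups that did not overlap, as in 19.1% of all genes, with a log2 difference of 0.61 (BH-adjusted p = 1 by edgeR). The 74.5 CPM were in Ang II WT replicate 3, the HPC-1 library with the highest sum of intestinal epithelium genes (262.2 CPM). In *Il27ra*+/- HPC-1 *Hoxa7* was at 52.3, 56.1, 44.7 and 54.3 CPM after Ang II and 43.01, 27.0 and 46.17 CPM after PBS, and in *Il27ra*-/- at 45.6, 69.6, 55.0 and 59.4 CPM and 40.8, 39.1 and 47.9 CPM. In the other 5 HPC-1 comparisons 0 of the 8 genes had an unadjusted p under 0.05. The widest log2 values among all 9 were 2.19 and −1.61, both in *Hoxb2*, a gene with a median of 1.402 CPM in HPC-1.

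The 10 genes were also set beside other genes of the same system, from lists of symbols, in the comparison of LT-HSC with HPC-1 over 5 conditions. There, 17.9% of the 18013 genes tested were higher in LT-HSC and 36.3% differed in either direction. Of the 11 other protein-coding *Hoxa* and *Hoxb* genes, 7 were tested, 4 were higher in LT-HSC and 0 lower. These were *Hoxb6* (2.81, SE 0.42), *Hoxb9* (4.66, SE 0.89), *Hoxa4* (1.31, SE 0.44) and *Hoxa2* (1.19, SE 0.41), with BH-adjusted p-values by edgeR from 8.55e-07 to 0.0217. *Hoxb6* and *Hoxb9* failed the filter among HPC-1 libraries alone, so it favoured a difference in them and their calls are no separate evidence. Of the 3 genes that pass it in each cell type alone 2 were higher (*Hoxa4* and *Hoxa2*), where 18.6% of such genes were. *Hoxb9*, like *Hoxb8*, was read almost in LT-HSC alone, with 100 counts there and 2 in HPC-1. *Hoxa6*, chosen after its values were seen, had the highest median level per kb of the *Hoxa* genes in LT-HSC, 25.42 CPM per kb against 10.35 in HPC-1, and its log2 difference of 0.57 did not pass. Of 10 noncoding genes of the clusters, 3 were tested and 2 were higher in LT-HSC, *Hoxaas3* (1.61, SE 0.59), which the filter also favoured, and *Hoxb3os* (1.15, SE 0.40). Of 18 *Hoxc* and *Hoxd* genes, 5 were tested and 0 called by edgeR, but their standard errors (115 to 7601) are too large for this to say that they do not differ. The *Hoxc* and *Hoxd* genes held 577 counts in all, 126 of them in HPC-1. *Hoxc6* had the most, with 173 counts in LT-HSC and 9 in HPC-1, so an excess of counts in LT-HSC was also seen outside the *Hoxa* and *Hoxb* clusters, and 18.89% of the 577 lay in LT-HSC PBS *Il27ra*+/- replicate 2.

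Of the TALE homeodomain genes, the family of the DNA-binding cofactors of *Hox* proteins, *Meis1* ran from 250.4 to 780.5 CPM in LT-HSC (median 586.7 CPM) and from 171.7 to 303.8 CPM in HPC-1 (median 249.2 CPM), with a log2 difference of 1.25 (SE 0.10, BH-adjusted p = 6.43e-12 by edgeR). *Pbx3* (1.74), *Meis2* (3.92) and *Meis3* (2.41) were higher and *Tgif1* (−0.64) and *Pbx4* (−0.58) lower, where *Meis2* and *Meis3* passed the filter through LT-HSC libraries only. Of a list of 15 activators of *Hox* genes, 12 were tested (all but *Cdx1*, *Cdx2* and *Cdx4*), of which 2 were higher and 5 lower (median −0.12). The 2 of 12 is near the 17.9% of all genes tested that were higher, and 36.3% differed in either direction. The share of genes lower is not given, so the counts lower here cannot be set against it. *Mllt3* (AF9), a partner of MLL, had a log2 difference of 2.66 (SE 0.25) and *Kmt2a* (MLL1) one of 0.36 (SE 0.10), whereas *Dot1l* had −0.49, *Ash2l* −0.35, *Mllt1* −0.34 and *Rbbp5* −0.31. Of 15 polycomb genes, 4 were higher and 6 lower (median −0.15), with the same shares of all genes beside them. Of polycomb repressive complex 2, *Ezh2* (−0.74, SE 0.10), *Eed* (−0.49) and *Mtf2* (−0.40) were lower and *Jarid2* (0.41) higher, and of polycomb repressive complex 1, *Cbx7* (1.26, SE 0.19) and *Phc1* (0.53) were higher. These 6 have the smallest adjusted p, and of the 4 other polycomb genes called 1 was higher and 3 lower, 1 of them in complex 1, so neither complex moved in 1 direction.

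In the same comparison, 9 of 9 LT-HSC markers were higher in LT-HSC and 4 of 4 HPC-1 markers lower. Of the other marker lists, 5 of 5 megakaryocyte, 3 of 6 erythroid and 3 of 12 intestinal epithelium genes were higher and 0 lower. Of all genes tested, 17.9% were higher, so the 3 of 12 is near that share. Of 9 granulocyte and monocyte genes 1 was higher and 6 were lower, of 7 lymphoid genes 4 were tested and 4 lower, and of 5 eosinophil, mast cell and basophil genes 3 were lower. Of 4 Y-linked genes, 0 were called by edgeR. Of the called genes, 3 of the megakaryocyte list and 1 of the eosinophil, mast cell and basophil list pass the filter in 1 cell type only. This favours a difference, so their calls are no separate evidence. The part of these genes in the *Hox* differences was not tested.

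How alike the genes are over the 36 libraries is given as Pearson's r of log2 CPM, as a description, since libraries share cell type and depth. With the cell type split left in, the pair most alike among the 10 *Hox* genes was *Hoxb5* and *Hoxb8* (r = 0.905), followed by *Hoxa3* and *Hoxa10* (0.84). On deviations from the means of the 12 groups, *Hoxa3* and *Hoxa10* (0.693) and *Hoxa9* and *Hoxa10* (0.692) were above *Hoxb5* and *Hoxb8* (0.685). The 10 pairs of *Hoxb* genes had a median r of 0.71 (0.57 to 0.905), the 10 pairs of *Hoxa* genes one of 0.424 (−0.304 to 0.84) and the 25 pairs between the clusters one of 0.544 (−0.281 to 0.776). On deviations from group means, which removes the cell type split, the medians were 0.296, 0.265 and 0.345. With the cell type split left in, *Hoxa7* had an r of 0 or less with each of the 9 others, down to −0.304 with *Hoxa10*. On deviations its r ran from −0.252 with *Hoxa3* to 0.175 with *Hoxa5*, and was positive with 4 of the 9.

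Among all 18012 other genes tested, those most like *Hoxb5* were *Unc45b* (r = 0.942), *St3gal1* and *Marveld1* (0.931 each), and those most like *Hoxb8* were *Bmp4* (0.963), *Ror2* and *Clip3* (0.944 each). For *Hoxb4* they were *1300002E11Rik* (0.85), *Fhdc1* (0.842) and *Prdm11* (0.829), and for *Hoxb3* *Dst* (0.87), *Meis1* and *Pkd2* (0.869 each). *Bmp4* encodes a secreted signal, *Ror2* a Wnt receptor, and *Meis1* a cofactor of *Hox* proteins. For *Hoxb2* they were *Madd* (0.889), *5031425E22Rik* (0.883) and *Zcchc2* (0.881). For *Hoxa9* they were *Appl2* (0.836), *Arhgap4* (0.803) and *Gimap6* (0.793), and for *Hoxa10* *Ncoa1* (0.92), *Cd81* (0.913) and *Ifih1* (0.906). For *Hoxa3* they were *Nfkbiz* (0.929), *Rcan3* (0.912) and *Slc25a36* (0.911), and for *Hoxa5* *Nipa1* (0.803), *Zhx3* (0.791) and *Zfp229* (0.788). All 9 genes differ between the cell types, and these r include that split. On deviations from the group means the nearest gene was *Dpy19l3* (0.82) for *Hoxb5*, *Bmp4* (0.906) for *Hoxb8*, *Phactr2* (0.845) for *Hoxb4*, *Phkb* (0.809) for *Hoxb3* and *Tead3* (0.758) for *Hoxb2*. It was *Csad* (0.813) for *Hoxa9*, *Shisa5* (0.901) for *Hoxa10*, *Nfkbiz* (0.919) for *Hoxa3* and *Zfp229* (0.816) for *Hoxa5*.

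The promoters of 7 of the 10 genes were matched in RefSeq (GRCm38.p6), as 250 bases before to 50 after a gene's RefSeq start. The RefSeq starts of *Hoxa3*, *Hoxa7*, *Hoxa9* and 1 of the 2 of *Hoxa10* lie inside the GENCODE spans given above, so these windows are not at the ends of those spans. Those of *Hoxb8*, read almost in LT-HSC alone, and *Hoxa7*, the gene that did not pass, are shown for comparison, 5′ to 3′ on the strand of the gene. The *Hoxb8* window is chr11:96281655-96281954 (plus strand) and the *Hoxa7* window chr6:52218524-52218823 (minus strand), and capitals mark matches of TTTATNG in either orientation (reverse CNATAAA), letters bound by posterior HOX and CDX factors.
*Hoxb8*: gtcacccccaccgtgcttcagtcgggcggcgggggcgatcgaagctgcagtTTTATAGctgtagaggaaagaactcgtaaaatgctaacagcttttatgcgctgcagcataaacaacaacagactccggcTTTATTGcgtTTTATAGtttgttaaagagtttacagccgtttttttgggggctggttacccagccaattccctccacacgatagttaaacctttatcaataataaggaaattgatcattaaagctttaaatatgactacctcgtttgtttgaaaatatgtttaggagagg
*Hoxa7*: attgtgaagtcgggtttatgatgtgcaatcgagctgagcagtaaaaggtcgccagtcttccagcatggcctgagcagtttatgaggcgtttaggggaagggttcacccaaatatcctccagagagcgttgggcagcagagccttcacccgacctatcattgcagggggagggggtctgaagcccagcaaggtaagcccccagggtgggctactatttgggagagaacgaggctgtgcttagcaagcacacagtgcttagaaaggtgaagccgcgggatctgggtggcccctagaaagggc
The *Hoxb8* window holds 3 matches and that of *Hoxa7* 0, and 10.9% of all 32851 promoters hold at least 1 match and 0.0639% at least 3. The windows of *Hoxa3*, *Hoxa5*, *Hoxa9*, *Hoxa10* (both starts) and *Hoxb4*, genes called higher in LT-HSC, also hold 0 matches. TGATTNAT (reverse ATNAATCA), the letters of a joint site of HOX proteins and TALE cofactors, was in 0 of the 7 genes' windows and in 3.22% of all promoters. A match is a description of letters, not a site. The windows held 13 CG pairs in *Hoxb8*, 14 in *Hoxb4*, 9 in *Hoxa7*, 4 in *Hoxa9*, 20 in *Hoxa3* and 29 in *Hoxa5*, and 12 and 21 at the 2 starts of *Hoxa10*, against a median of 7 over all promoters. The 5 *Hoxa* genes lie on the minus strand of chromosome 6 and the 5 *Hoxb* genes on the plus strand of chromosome 11. The 3 genes without a match were *Hoxb2*, *Hoxb3* and *Hoxb5*.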

How the data were processed

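The authors deposited 1 table of RSEM expected counts in whole numbers (0 values were not whole), without normalization, for 38887 Ensembl genes in 36 libraries. The deposited labels name Bowtie2, RSEM 1.2.31 and mm10, whereas the paper describes alignment with STAR and an older RSEM version. Symbols were found for 37570 identifiers, which held 99.63% of counts, and positions and exon lengths came from GENCODE mouse M21. Groups followed the labels and no library was dropped from the first analysis. In R 4.3.3, edgeR 4.0.16 was used (filterByExpr, TMM, robust quasi-likelihood test, Benjamini-Hochberg adjustment over all genes tested), with 12 groups in 1 model for both cell types and 6 groups in a model for each cell type. It was tested on simulated data. CPM are on TMM-scaled totals, with a prior count of 2 in log2 CPM. Other summaries used Python 3.11 with numpy 2.4.6, pandas 2.3.3 and scipy 1.17.1. Alternatives were DESeq2 1.42.0, upper-quartile factors, no low-count filter (genes with any count), a filter at a mean count of 10, a replicate block, a Y-linked covariate, thinning to the lowest total, the compared groups alone, conditions without WT, 3 LT-HSC libraries left out together, and each library left out in turn. Comparisons with the single PBS WT library of LT-HSC were left out.

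The members and lists were chosen with earlier results of these data known. Named were all 10 members, *Il27ra*, up to 6 called genes per list of other *Hoxa* and *Hoxb* genes, *Hoxc* and *Hoxd* genes, noncoding cluster genes, TALE cofactors, activators and polycomb repressors by smallest adjusted p (for a list with none, the gene with the most counts), and the 3 genes most alike in log2 CPM to each called member. Of these, 1 gene is not reported here. Marker lists of LT-HSC, HPC-1, erythroid, granulocyte and monocyte, megakaryocyte, lymphoid, eosinophil with mast cell and basophil, intestinal epithelium and Y-linked genes were summed in CPM.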

Additional observations from a re-analysis of the deposited data

Results flagged for a closer look

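Of 38 sets of a member in a group of 4 libraries, 4 held a library far from the others of its group (a gap to the next library above Dixon's 95% critical share of the range), a rule that chance meets in about 1 in 20 sets. *Hoxa3* was at 16.4 CPM in LT-HSC Ang II *Il27ra*-/- replicate 2 and at 44.75, 45.19 and 46.82 CPM in replicates 1, 3 and 4. *Hoxa10* was at 7.542 CPM in LT-HSC Ang II *Il27ra*+/- replicate 1, while replicates 2, 3 and 4 had 22.8, 20.4 and 21.6 CPM. In HPC-1 Ang II *Il27ra*+/- replicate 3, the HPC-1 library with the highest LT-HSC marker sum, *Hoxa5* was at 24.33 CPM and *Hoxa9* at 86.01 CPM. The other 3 libraries of that group had 7.28, 5.02 and 7.43 CPM of *Hoxa5* and 41.4, 46.1 and 45.5 CPM of *Hoxa9*.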

How the results depend on the processing

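The counts of the 10 genes called were run under the alternatives and with single libraries left out, which gave 752 values of 23 counts, and 719 of them were unchanged or within 1.5 times. Of the 23 counts, 18 were 0 in the main fit and most had little room to move. For the 5 counts over 0, 195 of 221 values were unchanged or within 1.5 times. The share of all genes called in the same fits is not given beside the counts that follow, so they cannot be set against it. A changed count is thus not read as a change of the *Hox* genes alone. The count over 5 conditions (9) was 8 to 9 in 9 alternatives and 6 to 9 with single libraries left out. The count in PBS *Il27ra*+/- (1) was 3 with DESeq2, without a filter and with the replicate block, 2 without the 3 LT-HSC libraries, and 1 to 3 with single libraries left out. In PBS *Il27ra*-/- (0) it was 3 with DESeq2, 2 without a filter, 1 with the replicate block, 4 without the 3 libraries, and 0 to 4 with single libraries left out. In Ang II WT (3) it was 7 with DESeq2, without a filter and without the 3 libraries, 5 with a mean count of at least 10 (9 of the 10 tested) and with thinned counts, 1 with the replicate block, and 1 to 5 with single libraries left out. In Ang II *Il27ra*+/- (4) it was 7 without a filter and with the replicate block, and 2 to 7 with single libraries left out. In Ang II *Il27ra*-/- (6) it was 5 to 7 in 8 alternatives and 3 to 6 with single libraries left out. Both interactions, and all comparisons within HPC-1, were 0 throughout, and those within LT-HSC were 0 apart from 0 to 1 in *Il27ra*-/- and *Il27ra*+/- against WT after Ang II with single libraries left out. The log2 difference of *Hoxa5* over 5 conditions ran from −0.73 to 1.21 with single libraries left out and turned to −0.73 without LT-HSC Ang II WT replicate 1, which leaves 1 library in that group, assumed to vary like the others. The cause was not tested for any of these.

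The replicate block treats equal numbers in the cell types as pairs. Of 16 such pairs, 7 had a correlation of deviations over 0.1 (−0.197 to 0.317, median 0.068), and 4 differed in Y-linked counts. In 10 of the 16, the LT-HSC library correlated best with its own number, a hint from the data and not the design. The numbers thus do not mark pairs throughout, and the blocked values are given here alone. Limits are few libraries per group (1 to 4), no gender or batch in the labels, a whole-body loss of *Il27ra*, and depth: *Hoxb5* had at most 15 counts in an HPC-1 library and *Hoxb8* at most 2, so their folds rest on few counts.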

Other observations

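LT-HSC PBS *Il27ra*+/- replicate 2 had a count in 26187 genes, while the other 35 libraries had one in 13053 to 22742. It held 109 of the 577 *Hoxc* and *Hoxd* counts. Y-linked genes summed to over 10 CPM in 9 of 17 LT-HSC and 15 of 19 HPC-1 libraries (at least 178.0 CPM) and to at most 0.3169 CPM in the rest.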
